A study of Homo sapiens with 15 samples.

Results

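Transcripts of the translation initiation factors and of the kinases that act on eIF2 were measured in Caco-2 monolayers exposed to a dishwasher rinse aid. The genes were all protein-coding genes whose HGNC symbol begins with EIF, a rule that used no measured value. The rule was chosen with earlier results of these data known. It found 56 of the 60557 genes shared by the 15 count files, and 51 of the 56 passed the count filter, among 13158 genes tested. Caco-2 is a human colorectal carcinoma cell line that forms an enterocyte-like monolayer. Per the labels, the exposure lasted 24 hours, with the rinse aid at a dilution of 1:10000 in 5 libraries and of 1:40000 in 5 others, beside 5 libraries of cells that received none. The 1:10000 solution was thus 4 times as concentrated as the 1:40000 solution. All 3 groups share the cell line, so the libraries describe 1 line, and the labels do not say whether replicates were separate cultures. The p-values therefore measure only the spread between these libraries, which may be technical.

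Translation of most mRNAs begins when eIF2, loaded with GTP and initiator tRNA, joins eIF1, eIF1A, eIF3 and eIF5 on the small ribosomal subunit. The cap-binding complex eIF4F, made of eIF4E, the scaffold eIF4G and the helicase eIF4A, brings this particle to the mRNA, and eIF5B then joins the large subunit. Under stress, the kinases HRI, PKR, PERK and GCN2 phosphorylate the alpha subunit of eIF2. The phosphorylated form blocks its exchange factor eIF2B, which lowers general initiation and raises translation of a few mRNAs such as ATF4. Counts of mRNA do not show phosphorylation or protein level.

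Total counts ran from 4333226 to 14230853 in the unexposed libraries, from 5489425 to 9555632 at 1:10000, and from 2551839 in replicate 2 to 172092447 in replicate 1 at 1:40000. Of 15 Caco-2 markers, 13 stood at or above a mean of 1 CPM (read counts scaled to a common library total), and KRT20 and LGALS4 stood below it in all 3 groups. Of these 13, 2 were called higher (KRT8 and KRT18) and 8 lower at 1:10000 against 1:40000, among them CDX2, HNF4A and FABP1 (log2 -1.61, -1.02 and -2.31). Of the fibroblast markers, COL1A2, DCN and THY1 stood under 1 CPM in every group, and of the leukocyte markers PTPRC, CD3E, CD79A and CD68. Of the endothelial markers, VWF, CDH5 and KDR stood under 1 CPM. The other markers of these types were detected, and 5 of them were called lower at 1:10000 than at 1:40000. These were COL1A1 (means of 92.2, 81.2 and 35.3 CPM in unexposed, 1:40000 and 1:10000 libraries), PDGFRB (27.0, 12.8 and 9.63), CD14 (10.3, 12.7 and 4.84), LYZ (7.89, 7.14 and 4.78) and PECAM1 (7.42, 8.97 and 3.15). Summed fibroblast markers ran from 129.5 to 152.9 CPM in unexposed libraries, from 103.7 to 133.8 CPM at 1:40000 and from 59.3 to 78.5 CPM at 1:10000. The part of any marker shift in the results was not tested. Per the file headers, RNA STAR made the files of unexposed cells (60649 rows) and HISAT2 made those of exposed cells (61544 rows). In both comparisons with unexposed cells, an effect of exposure and one of the aligner or annotation cannot be told apart. The comparison between the dilutions shares both. In bulk RNA, fewer cells of a kind and less RNA per cell cannot be told apart.

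The EIF genes together held 1.12 to 1.14% of all counts in unexposed libraries, 1.14 to 1.22% at 1:40000 and 1.22 to 1.28% at 1:10000. Values below are normalised CPM, meaning CPM after trimmed mean of M-values (TMM) scaling, as mean ± SD over 5 libraries. A gene was called higher or lower at an adjusted p under 0.05 in the quasi-likelihood test of edgeR, adjusted by Benjamini-Hochberg over all genes tested.

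Between the dilutions, more EIF genes were higher at 1:10000 than were lower. Of the 51 tested, 23 (45.1%) were called higher and 5 (9.80%) lower, where 28.3% of all genes tested were called higher and 29.1% lower (57.3% in either direction). At 1.5-fold or more, 8 EIF genes were higher and 1 lower, against 10.5% and 14.2% of all genes tested. The median log2 fold change of the EIF genes was 0.13, beside -0.01 over all genes tested. The 1:10000 and 1:40000 libraries did not overlap for 22 EIF genes, and 40.3% of all genes tested had such groups. The eIF3 subunits contributed 8 of the 23 higher calls, and eIF2 and its exchange factor, grouped with EIF2A and EIF2D, 5. The start codon and ribosome-binding factors contributed 4, the cap-binding and helicase factors 4, the kinases 1 and eIF5A 1. The 5 lower calls were EIF4EBP2, EIF4ENIF1, EIF5B, EIF4G1 and EIF4G3.

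Against unexposed cells, 30 EIF genes were called higher at 1:10000 and 13 lower, where 34.8% of all genes tested were called higher and 36.2% lower (71.0% in either direction). At 1.5-fold or more, 16 EIF genes were higher and 5 lower, against 20.8% and 21.8% of all genes tested. The EIF median log2 fold change was 0.32, beside -0.02 over all genes tested. The libraries of the 2 groups did not overlap for 38 EIF genes, against 57.8% of all genes tested. At 1:40000, 19 EIF genes were called higher and 9 lower, where 26.1% of all genes tested were called higher and 26.0% lower (52.1% in either direction). At 1.5-fold or more, 8 EIF genes were higher and 2 lower, against 12.1% and 8.69% of all genes tested. That median was 0.06, beside -0.002 over all genes tested. For 23 EIF genes the 1:40000 and unexposed libraries did not overlap, against 36.3% of all genes tested. Both comparisons share the unexposed libraries.

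**Figure D1:**
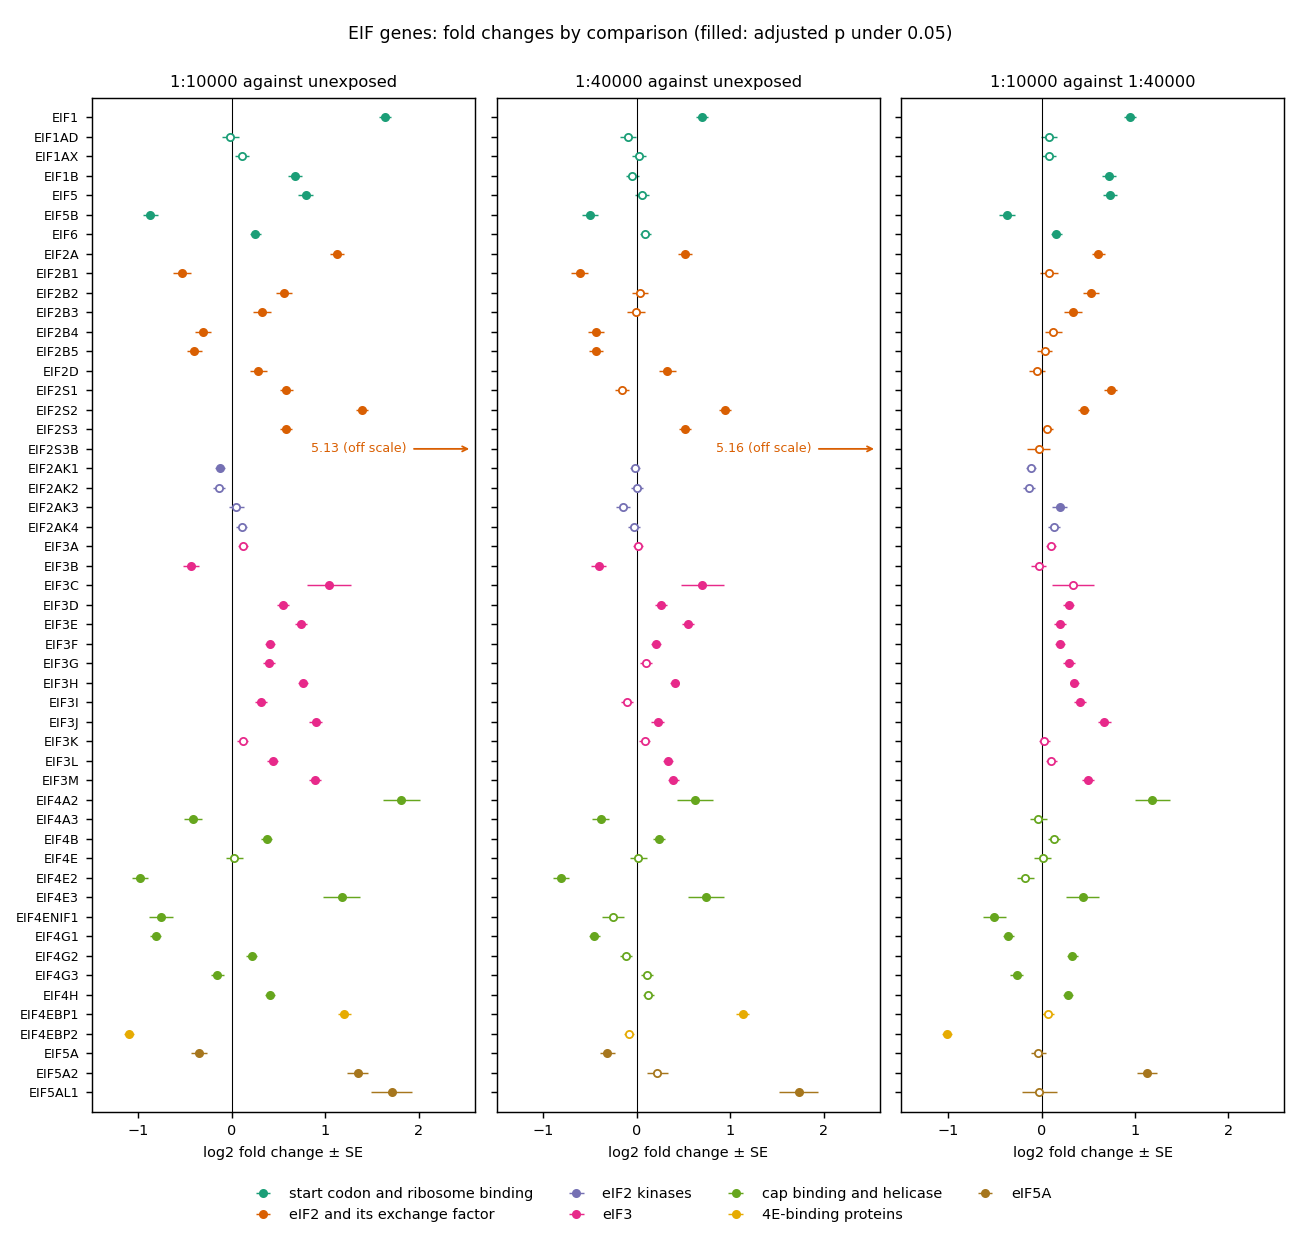
Log2 fold change ± SE (horizontal axis) of the 51 tested EIF genes, coloured by role, in the 3 comparisons; filled points had an adjusted p under 0.05 and EIF2S3B lies off the scale in both comparisons with unexposed cells. Points right of 0 outnumber points left of 0 in the right panel, where 23 genes were called higher and 5 lower, while the 4 kinases lie close to 0 in all panels.

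Many EIF genes have copies or overlapping neighbours, and reads from these cannot always be assigned. Named pseudogenes in the files belong to 24 of the 56 genes, 27 share at least 5% of their 50-base windows with another gene, 6 have at least 5% of their exon length under exons of another gene on the same strand, 15 have at least 5% under exons on the opposite strand, and 6 changed version between the 2 annotations. Counts on the 81 named pseudogenes came to 0.155 to 0.184% of the EIF counts in unexposed libraries, 1.04 to 1.09% at 1:40000 and 1.01 to 1.14% at 1:10000. This share moved with the aligner and annotation and with exposure, and was alike at both dilutions. Among the 12 tested genes with no pseudogene, no changed version and less than 5% of overlap or shared windows, 5 were higher and 1 lower between the dilutions, 50% in all beside 57.3% of all genes tested. Against unexposed cells, 6 were higher and 2 lower at 1:10000 (66.7% beside 71.0%), and 2 were higher and 2 lower at 1:40000 (33.3% beside 52.1%).

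Both near-identical copies stood apart in the comparisons with unexposed cells. EIF2S3B is an intact copy of EIF2S3, the gamma subunit of eIF2 that binds GTP and initiator tRNA. EIF5AL1 is a copy of EIF5A, which helps ribosomes past difficult peptide bonds. The coding sequences of EIF2S3 and EIF2S3B differ at 25 of 1416 bases (98.2% identity), with an identical run of 205 bases, and those of EIF5A and EIF5AL1 at 5 of 462 bases (98.9% identity), with an identical run of 192 bases. The windows of 60 bases with many differences are shown because they tell the copies apart. They are from GENCODE 29 transcripts on GRCh38, 5′ to 3′, with differing bases in capitals, and cover coding bases 298 to 357 of the first pair and 74 to 133 of the second.
EIF2S3: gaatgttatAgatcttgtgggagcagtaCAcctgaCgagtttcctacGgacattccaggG
EIF2S3B: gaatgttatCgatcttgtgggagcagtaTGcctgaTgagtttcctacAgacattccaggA
EIF5A: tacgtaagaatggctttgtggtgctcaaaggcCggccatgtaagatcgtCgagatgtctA
EIF5AL1: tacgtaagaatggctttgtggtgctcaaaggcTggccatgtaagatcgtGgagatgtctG

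EIF2S3B stood at 0.476 to 0.666 CPM in the unexposed libraries, at 17.4 to 23.7 CPM at 1:40000 and at 14.0 to 24.0 CPM at 1:10000. Its log2 fold change against unexposed cells was 5.16 ± 0.21 (SE) at 1:40000 and 5.13 ± 0.22 at 1:10000 (adjusted p = 1.19e-16 and 1.75e-16), while the dilutions differed by -0.03 ± 0.12 (adjusted p = 0.849). EIF5AL1 stood at 2.40 to 7.32 CPM in unexposed libraries, at 10.9 to 19.7 CPM at 1:40000 and at 13.6 to 18.5 CPM at 1:10000. It was 3.33-fold higher at 1:40000 and 3.27-fold higher at 1:10000 than in unexposed cells (adjusted p = 7.67e-07 and 4.81e-07), and the dilutions differed by -0.02 ± 0.18 on the log2 scale (adjusted p = 0.922). Both rises went with exposure and with the change of aligner and annotation, which cannot be told apart, and the dilutions did not differ past the threshold.

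Pseudogene counts showed the same order for several parents. For EIF4E, counts on its 5 named pseudogenes made up 0.225 to 1.98% of the gene and its pseudogenes together in unexposed libraries, 13.9 to 17.1% at 1:40000 and 12.1 to 19.8% at 1:10000. For EIF3F the shares were 2.89 to 3.45%, 12.9 to 14.6% and 12.8 to 14.8% in the same order. For EIF1AX they were 0.355 to 0.842%, 8.03 to 10.4% and 10.1 to 11.6%. The shares of all 3 genes overlapped between the dilutions and lay above those of unexposed libraries. Pseudogenes of EIF1, EIF5, EIF4A2, EIF4EBP1 and EIF4EBP2 held under 1% in every library.

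**Figure D2:**
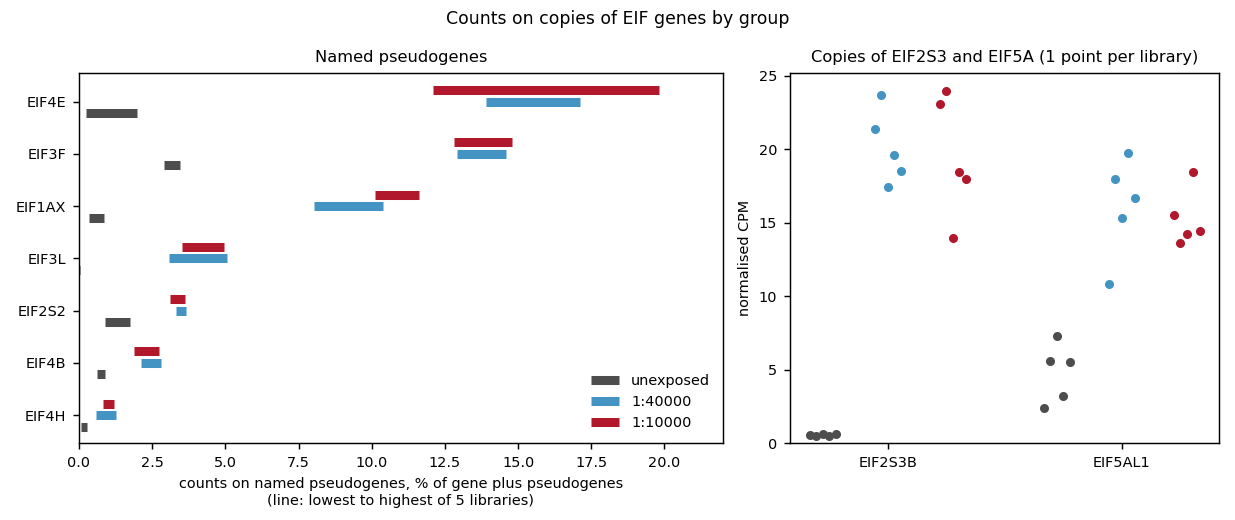
Left, counts on named pseudogenes as a percent of gene plus pseudogenes (horizontal axis), as a line from the lowest to the highest of 5 libraries per group, for the tested genes whose highest 1:40000 library is above 1%. Right, normalised CPM of the copies EIF2S3B and EIF5AL1, 1 point per library with the groups in the same colours; both rinse aid groups lie above the unexposed group in each set.

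Of the 7 tested factors for start codon choice and ribosome binding, 4 were higher and 1 lower at 1:10000, both against 1:40000 and against unexposed cells, and 1 was higher and 1 lower at 1:40000. Called in either direction were thus 71.4% at 1:10000 against 1:40000 (57.3% of all genes tested), 71.4% at 1:10000 against unexposed cells (71.0%) and 28.6% at 1:40000 (52.1%). EIF1, which guards start codon recognition, had 248, 316, 292, 294 and 290.5 CPM in unexposed replicates 1 to 5, 495, 521, 434, 453 and 438 CPM at 1:40000, and 969, 897, 904, 877 and 845 CPM at 1:10000. The 3 groups did not overlap and rose from unexposed to 1:40000, where aligner and annotation also changed, and again to 1:10000. EIF1 (chromosome 17, bases 41688885 to 41692668 on the plus strand, GRCh38) was 1.92-fold higher at 1:10000 than at 1:40000 (log2 0.94 ± 0.07 SE, adjusted p = 1.22e-11), and 1.62-fold and 3.11-fold higher at 1:40000 and 1:10000 than in unexposed cells (adjusted p = 2.43e-09 and 8.44e-17).

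EIF5, the GTPase-activating protein of eIF2, had 358, 373, 369, 396.5 and 386 CPM in unexposed libraries, 325.5, 320.5, 443.5, 427 and 433 CPM at 1:40000, and 647, 605, 664, 666 and 672 CPM at 1:10000. All 1:10000 libraries lay above all others, and replicates 1 and 2 at 1:40000 lay below the unexposed ones. It was 1.66-fold higher at 1:10000 than at 1:40000 (adjusted p = 2.37e-08). At 1:40000 its log2 fold change against unexposed cells was 0.06 (adjusted p = 0.579), and 0.22 (adjusted p = 0.000565) with the rinse aid groups limited to replicates 3 to 5, a limit added after the data were seen. EIF1B, a close relative of EIF1, stood at 51.0 to 58.8, 52.0 to 61.9 and 80.7 to 102.5 CPM in unexposed, 1:40000 and 1:10000 libraries. It was 1.65-fold higher at 1:10000 than at 1:40000 (adjusted p = 8.75e-09) and did not pass the test at 1:40000 against unexposed cells (log2 -0.05, adjusted p = 0.624).

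EIF5B, which joins the large subunit, went the other way. Its libraries held 226, 208, 209, 205 and 201 CPM when unexposed, 131, 182, 139, 159 and 139 CPM at 1:40000, and 128.5, 96.2, 117, 125.5 and 103 CPM at 1:10000. The groups did not overlap and fell from unexposed to 1:40000, where aligner and annotation also changed, and again to 1:10000. EIF5B was 1.30-fold lower at 1:10000 than at 1:40000 (log2 -0.37 ± 0.08, adjusted p = 0.000568) and 1.83-fold lower than in unexposed cells (adjusted p = 1.84e-09). Of its exon length, 10.8% overlaps REV1 on the opposite strand. EIF6, which keeps free large subunits apart, was 1.19-fold higher at 1:10000 than unexposed (168 ± 8.0 and 200 ± 6.5 CPM, adjusted p = 0.000716). Exons on the same strand, chiefly of AL121753.1, cover 17.4% of the exon length of EIF6. EIF1AX, which codes for eIF1A, and EIF1AD were called in none of the 3 comparisons. Counts of EIF1AX leave out its named pseudogenes, whose share was higher in rinse aid libraries than in unexposed ones.

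**Figure D3:**
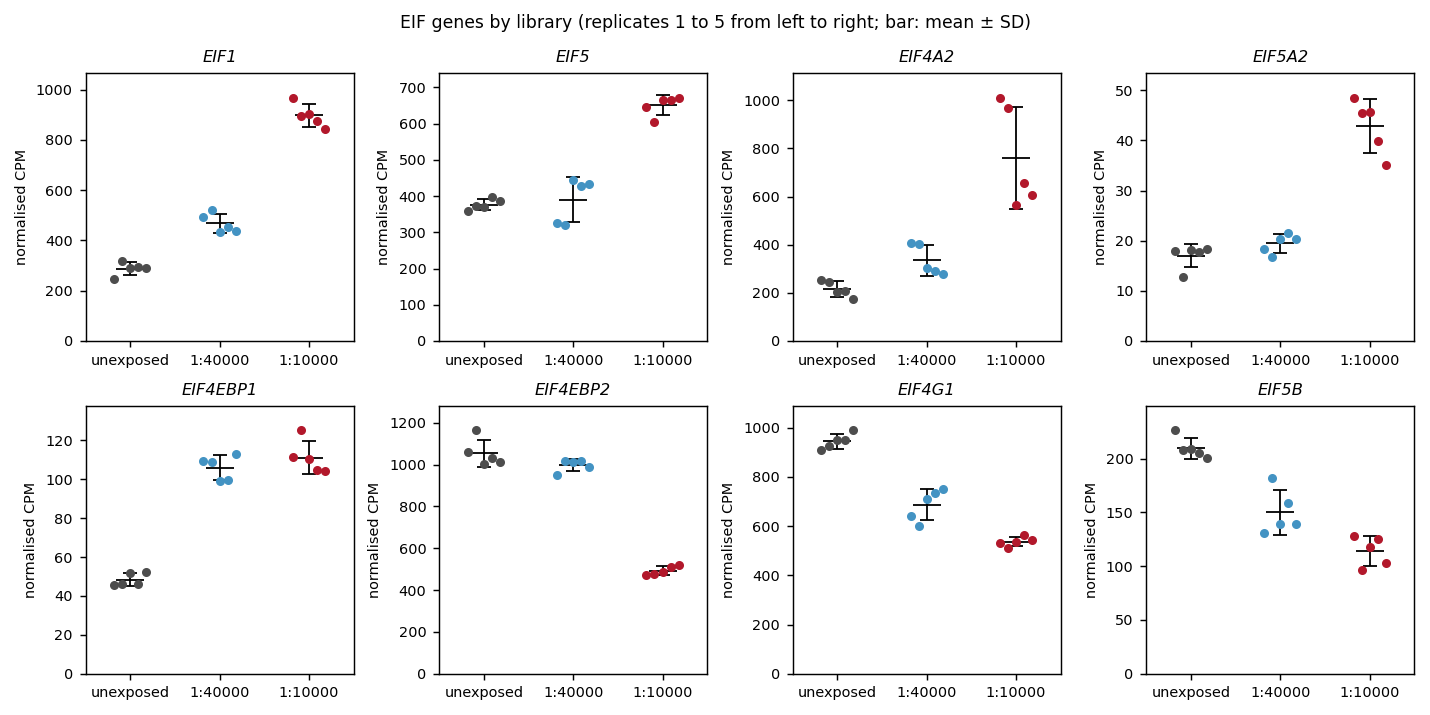
Normalised CPM (vertical axes, from 0) of 8 EIF genes in each library, replicates 1 to 5 from left to right within a group, with mean ± SD bars. EIF1 and EIF4A2 climb from unexposed through 1:40000 to 1:10000, EIF5, EIF5A2 and EIF4EBP2 move at 1:10000 while the means at 1:40000 stay near the unexposed ones, and EIF4G1 and EIF5B descend.

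The 3 subunits of eIF2 all rose at 1:10000 against unexposed cells, though not with 1 pattern. EIF2S1, the alpha subunit that the kinases phosphorylate, had 86.7, 95.0, 103, 99.1 and 113 CPM in unexposed libraries, 79.3, 86.3, 95.2, 94.9 and 90.4 CPM at 1:40000, and 163.5, 140.4, 140.4, 150.4 and 150.3 CPM at 1:10000. The unexposed and 1:40000 libraries overlapped, and all 1:10000 libraries lay above both. EIF2S1 was 1.67-fold higher at 1:10000 than at 1:40000 (log2 0.74 ± 0.07, adjusted p = 4.28e-09), and its log2 fold change at 1:40000 against unexposed cells was -0.16 (adjusted p = 0.0714), and -0.20 without unexposed replicate 1 (adjusted p = 0.0236) or -0.19 without 1:40000 replicate 3 (adjusted p = 0.0495).

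EIF2S2, the beta subunit, had 231.5, 264, 285, 270.3 and 275 CPM in unexposed libraries, 481.5, 556.5, 517, 506 and 501 CPM at 1:40000, and 782, 706, 674, 668 and 661.5 CPM at 1:10000. The 3 groups did not overlap and rose from unexposed to 1:40000, where aligner and annotation also changed, and again to 1:10000. Its log2 fold change was 0.45 ± 0.06 between the dilutions (adjusted p = 1.06e-06) and 0.95 ± 0.06 at 1:40000 against unexposed cells (adjusted p = 2.65e-12). EIF2S2 has 7 named pseudogenes, which held 0.884 to 1.75% of the counts in unexposed libraries and 3.10 to 3.64% in rinse aid libraries. EIF2S3, the gamma subunit, stood at 327 ± 16.7, 469 ± 18.7 and 489 ± 46.3 CPM in unexposed, 1:40000 and 1:10000 libraries. It was 1.43-fold higher at 1:40000 than unexposed (adjusted p = 1.31e-07), and the dilutions differed by 0.06 ± 0.06 on the log2 scale (adjusted p = 0.401).

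The 5 subunits of eIF2B, the exchange factor that reloads eIF2 with GTP, split at 1:10000 against unexposed cells. There 2 were called higher and 3 lower (100% beside 71.0% of all genes tested), and aligner and annotation also changed. Between the dilutions, 2 were called higher and none lower (40% beside 57.3%). EIF2B1, the alpha subunit, had 54.9, 50.1, 51.3, 54.9 and 59.4 CPM in unexposed libraries, 28.5, 30.6, 41.3, 36.4 and 39.8 CPM at 1:40000, and 39.7, 34.8, 38.1, 35.2 and 38.9 CPM at 1:10000. Both rinse aid groups lay below the unexposed one and overlapped each other. EIF2B1 was 1.53-fold lower at 1:40000 and 1.45-fold lower at 1:10000 than unexposed (adjusted p = 5.89e-06 and 2.1e-05), and 15.6% of its exon length overlaps DDX55 on the opposite strand. EIF2B4 (log2 -0.43 and -0.31) and EIF2B5 (-0.43 and -0.40), the delta and epsilon subunits, were also called lower at 1:40000 and 1:10000. EIF2B2, the beta subunit, stood at 26.7 ± 1.9, 27.5 ± 1.8 and 39.7 ± 4.2 CPM in unexposed, 1:40000 and 1:10000 libraries and was 1.44-fold higher at 1:10000 than at 1:40000 (adjusted p = 9.11e-06). EIF2B3, the gamma subunit, was also higher between the dilutions (log2 0.33, adjusted p = 0.00428), and neither passed the test at 1:40000 against unexposed cells. Opposite-strand genes overlap 23.6% of the exon length of EIF2B2 and 10.2% of that of EIF2B3. EIF2B4 changed version between the annotations.

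Both other tRNA-delivering factors were higher after exposure. EIF2A, a protein separate from the alpha subunit of eIF2 that can deliver initiator tRNA without GTP, stood at 153 ± 13.5, 219 ± 13.1 and 333 ± 37.8 CPM in unexposed, 1:40000 and 1:10000 libraries. The 3 groups did not overlap, and EIF2A was 1.52-fold higher at 1:10000 than at 1:40000 (adjusted p = 1.25e-07). EIF2D, which can bring tRNA to the ribosome without GTP, was 1.26-fold higher at 1:40000 (adjusted p = 0.00271) and 1.22-fold higher at 1:10000 (adjusted p = 0.00639) than unexposed, with overlapping libraries.

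The 4 eIF2 kinases moved little. The libraries overlapped in all 12 kinase comparisons, and 2 of the 12 passed the test, with changes of 1.09-fold and 1.14-fold. Over all genes tested, 71.0% passed at 1:10000 against unexposed cells, 52.1% at 1:40000 and 57.3% between the dilutions, and the groups did not overlap for 57.8%, 36.3% and 40.3%. EIF2AK1 encodes HRI, activated by heme shortage and by mitochondrial stress. It had 237, 242, 228, 223 and 222 CPM in unexposed libraries, 243, 229.6, 222, 219 and 223 CPM at 1:40000, and 213, 223, 209.5, 206 and 201 CPM at 1:10000. It was 1.09-fold lower at 1:10000 than unexposed (log2 -0.13 ± 0.05, adjusted p = 0.0316). That call was lost under 12 of 27 alternatives, with adjusted p over all 27 from 0.0151 to 0.162. It was lost with DESeq2 size factors (0.0784), DESeq2's Wald test (0.0571), no filter on low counts (0.162), only the 2 groups compared (0.0577) and without the deepest and shallowest 1:40000 libraries (0.0501). Of single libraries, it was lost without unexposed replicate 1 (0.0574) or 2 (0.0725), 1:10000 replicate 1 (0.0652), 3 (0.0534), 4 (0.0645) or 5 (0.0831), or 1:40000 replicate 2 (0.0673).

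EIF2AK2 encodes PKR, activated by double-stranded RNA. It had 120, 129.6, 126, 128 and 122 CPM in unexposed libraries, 131.5, 132, 124, 119.5 and 122 CPM at 1:40000, and 128, 110.3, 115, 117 and 101 CPM at 1:10000. Its log2 difference between the dilutions was -0.14 ± 0.06 (adjusted p = 0.0628), and -0.17 without 1:10000 replicate 1 (adjusted p = 0.0218). Against unexposed cells its log2 difference at 1:10000 was -0.14 (adjusted p = 0.0562). It was called lower under 7 of 27 alternatives, with adjusted p over all 27 from 0.021 to 0.196, among them without 1:10000 replicate 1 (log2 -0.16, adjusted p = 0.0213), unexposed replicate 1 (0.0472) or 1:40000 replicate 1 (0.0494). Between the dilutions it was called lower under 6 of 27. EIF2AK3 encodes PERK, activated by unfolded proteins in the endoplasmic reticulum. It had 58.1, 59.7, 73.9, 61.4 and 62.2 CPM in unexposed libraries, 54.3, 60.7, 63.8, 53.1 and 53.1 CPM at 1:40000, and 63.4, 68.2, 71.1, 62.7 and 59.4 CPM at 1:10000. EIF2AK3 was 1.14-fold higher at 1:10000 than at 1:40000 (log2 0.19 ± 0.08, adjusted p = 0.0365). That call was lost under 10 of 27 alternatives, with adjusted p over all 27 from 0.00984 to 0.313. It was lost under upper-quartile scaling (0.109), with no filter (0.313), with a 10 CPM minimum (0.0573) and with the rinse aid groups limited to replicates 3 to 5 (0.1). Of single libraries, it was lost without 1:10000 replicate 2 (adjusted p = 0.058) or 3 (0.108), without 1:40000 replicate 1 (0.0735), 4 (0.0913) or 5 (0.086), and without unexposed replicate 5 (0.064). Of its exon length, 15.1% overlaps AC104134.1 on the opposite strand.

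EIF2AK4 encodes GCN2, activated by uncharged tRNA and stalled ribosomes. It had 68.3, 74.0, 68.8, 66.2 and 73.4 CPM in unexposed libraries, 74.6, 67.2, 67.5, 66.8 and 66.1 CPM at 1:40000, and 71.8, 76.5, 77.9, 73.7 and 77.2 CPM at 1:10000. No comparison of EIF2AK4 passed the test, with log2 0.13 ± 0.06 between the dilutions (adjusted p = 0.0698), which passed without 1:40000 replicate 1 (0.17, adjusted p = 0.0237) or 1:10000 replicate 1 (0.16, adjusted p = 0.0431). Between the dilutions, EIF2AK1 (log2 -0.11, adjusted p = 0.072) and EIF2AK4 were each called under 5 of 27 alternatives. Per kilobase of exon, the kinases in unexposed cells ranked EIF2AK1 (41.5 ± 1.6 CPM per kb), EIF2AK2 (11.7 ± 0.4), EIF2AK3 (11.6 ± 1.2) and EIF2AK4 (5.87 ± 0.28). EIF2AK2 and EIF2AK3 lay within each other's spread. Exon length joins all exons annotated for a gene, expressed or not, so orders and ratios between genes also depend on the annotation.

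**Figure D4:**
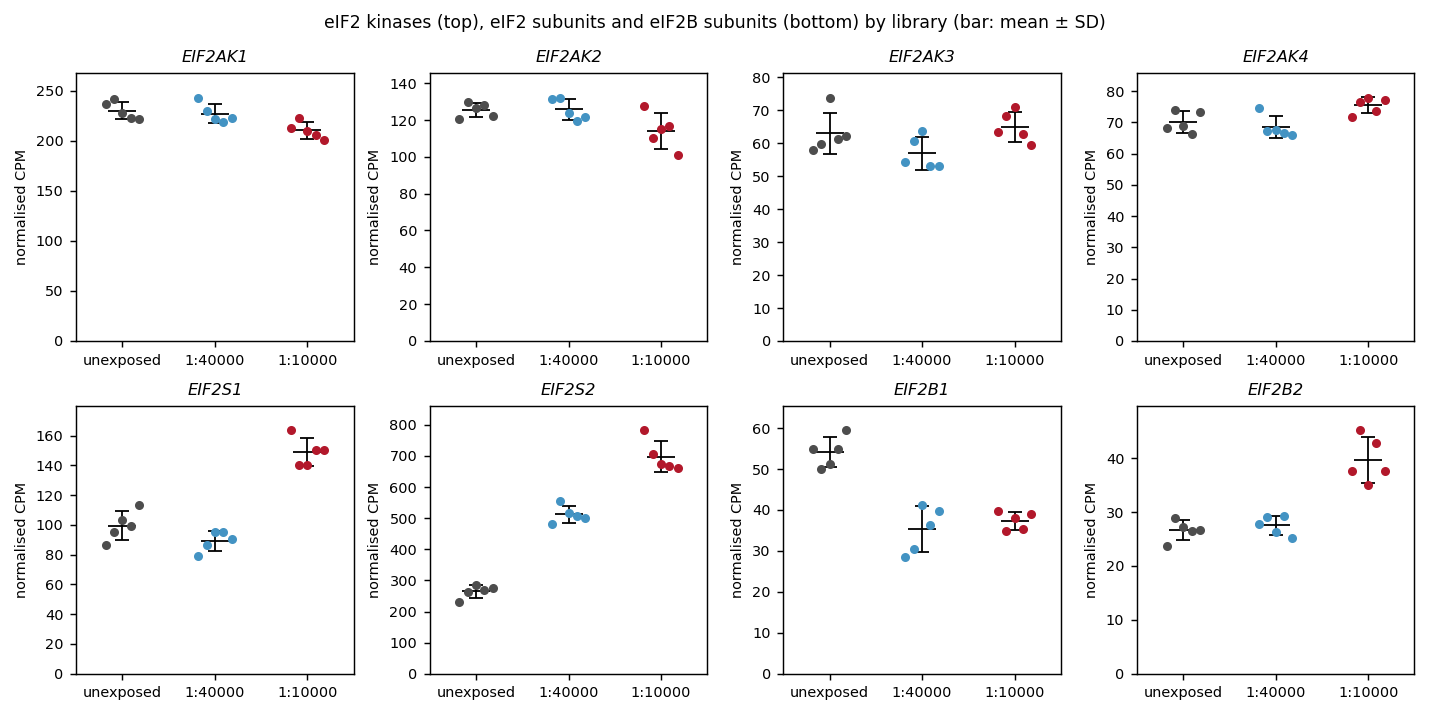
Normalised CPM (vertical axes, from 0) in each library of the 4 eIF2 kinases (top) and of 2 subunits each of eIF2 and eIF2B (bottom), with mean ± SD bars. The kinase groups overlap, whereas the 1:10000 libraries of EIF2S1, EIF2S2 and EIF2B2 lie above all others and those of EIF2B1 overlap the 1:40000 ones.

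The 4 partner lists were chosen with earlier results of these data known, so their shares are description and not a test. Of 18 partners of eIF2 phosphorylation, 10 were higher and 2 lower at 1:10000 against 1:40000 (66.7% beside 57.3% of all genes tested), with a median log2 fold change of 0.33 beside -0.01 over all genes tested. Against unexposed cells, 10 were higher and 3 lower at 1:10000 (72.2% beside 71.0%), and 7 higher and 5 lower at 1:40000 (66.7% beside 52.1%). PPP1R15A, the GADD34 subunit that directs a phosphatase to eIF2, stood at 35.1 ± 3.8, 51.4 ± 13.6 and 309 ± 28.6 CPM in unexposed, 1:40000 and 1:10000 libraries (between the dilutions log2 2.57, adjusted p = 7.97e-10). PPP1R15B, its constitutive relative, stood at 85.4 ± 7.0, 106.5 ± 11.8 and 173 ± 31.3 CPM (log2 0.70 between the dilutions, adjusted p = 9.11e-06). Both phosphatase subunits were called higher in all 3 comparisons. PRKRA, an activator of PKR, was also called higher in all 3. It stood at 32.9 ± 2.7, 60.5 ± 2.0 and 92.9 ± 6.4 CPM (log2 0.62 between the dilutions, adjusted p = 3.85e-08).

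ATF4, the factor translated when eIF2 is phosphorylated, stood at 223 ± 13.2 CPM unexposed, 413 ± 13.5 at 1:40000 and 439 ± 28.8 at 1:10000. It was called higher at both dilutions (log2 0.89 and 0.98), and the dilutions differed by log2 0.09 (adjusted p = 0.19). DDIT3, the transcription factor CHOP, stood at 8.84 ± 1.0, 46.5 ± 10.8 and 88.8 ± 9.5 CPM, with log2 0.93 between the dilutions (adjusted p = 2.25e-06). HSPA5, the chaperone BiP that holds PERK inactive, was lower at 1:40000 than unexposed (log2 -0.21, adjusted p = 0.00912) and higher at 1:10000 than at 1:40000 (log2 0.90, adjusted p = 4.35e-11). Called lower between the dilutions were GCN1, the activator of GCN2 (log2 -0.27, adjusted p = 0.000168), and PPP1CA, a phosphatase catalytic subunit (-0.19, adjusted p = 0.00797). The catalytic subunits PPP1CB and PPP1CC were called higher there (log2 0.52 and 0.47, adjusted p = 0.000503 and 0.000127). Among genes called lower at 1:40000 against unexposed cells were QRICH1 (-0.42) and TARBP2, an inhibitor of PKR (-0.50).

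The eIF3 subunits, which form the platform on the small ribosomal subunit, were mostly higher. Of 13 tested, 8 were higher and none lower at 1:10000 against 1:40000 in edgeR's test, with 28.3% and 29.1% of all genes called in those directions, and the 5 not called had log2 differences of -0.03 to 0.34. Against unexposed cells, 10 were higher and 1 lower at 1:10000 (84.6% beside 71.0% of all genes tested), and 8 higher and 1 lower at 1:40000 (69.2% beside 52.1%). EIF3J, the loosely bound subunit near the decoding centre, stood at 113 ± 8.5, 131 ± 12.8 and 209.5 ± 13.2 CPM in unexposed, 1:40000 and 1:10000 libraries. It was 1.59-fold higher at 1:10000 than at 1:40000 (adjusted p = 1.47e-08), the 1 eIF3 subunit past 1.5-fold there. EIF3M stood at 196 ± 6.4, 257 ± 9.3 and 363 ± 38.4 CPM (log2 0.50 between the dilutions, adjusted p = 2.12e-07). EIF3D, which can bind the cap of some mRNAs itself, stood at 213 ± 10.6, 254 ± 18.3 and 310.4 ± 25.1 CPM (log2 0.29, adjusted p = 0.000371). EIF3E, EIF3F and EIF3H also rose in each comparison, with no overlap between the 3 groups, and EIF3G and EIF3I rose at 1:10000 against both others.

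EIF3B, part of the eIF3 core, was the exception. It had 328, 326, 374, 360 and 365 CPM in unexposed libraries, 225, 209, 289, 289.9 and 303 CPM at 1:40000, and 263, 235, 262, 265 and 266 CPM at 1:10000. Both rinse aid groups lay below the unexposed one and overlapped each other. Its log2 fold change was -0.41 ± 0.08 at 1:40000 and -0.44 ± 0.08 at 1:10000 (adjusted p = 0.000248 and 5.54e-05), and EIF3B is 1 of the 6 genes with a changed version. EIF3L was higher at both dilutions than unexposed and was not called between the dilutions (log2 0.105, adjusted p = 0.126). Exons on the same strand, chiefly of AL022311.1, cover 41.1% of its exon length. EIF3A, the largest subunit, and EIF3K were called in no comparison.

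EIF3C, another core subunit, is uncertain because 45.5% of its 50-base windows recur elsewhere, chiefly in EIF3CL. It had 13.4, 12.7, 11.8, 13.5 and 13.8 CPM in unexposed libraries, 25.4, 17.2, 28.99, 15.2 and 15.2 CPM at 1:40000, and 16.2, 29.9, 32.4, 36.3 and 20.8 CPM at 1:10000. Rinse aid libraries were scattered, and all lay above the unexposed ones. EIF3C was higher at 1:10000 than unexposed (log2 1.04 ± 0.24, adjusted p = 0.00106) and at 1:40000 (log2 0.70 ± 0.23, adjusted p = 0.0188). The call at 1:40000 ended without replicate 1 of that group (log2 0.62, adjusted p = 0.0692). Without 1:10000 replicate 1, the log2 difference between the dilutions was 0.49 (adjusted p = 0.0389), in place of 0.34 (adjusted p = 0.206).

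Among the cap-binding and helicase factors, EIF4A2 and EIF4G1 moved in opposite directions. EIF4A2, 1 of the helicases of eIF4F, had 255, 243, 203.5, 206 and 176 CPM in unexposed libraries, 407, 403, 302, 289 and 276.5 CPM at 1:40000, and 1011, 969, 563, 656 and 607 CPM at 1:10000. The groups did not overlap and rose from unexposed to 1:40000, where aligner and annotation also changed, and again to 1:10000. Replicates 1 and 2 lay above replicates 3 to 5 within each group. EIF4A2 (chromosome 3, bases 186783205 to 186789900 on the plus strand, GRCh38) was 2.28-fold higher at 1:10000 than at 1:40000 (log2 1.19 ± 0.19, adjusted p = 0.000135) and 3.52-fold higher than unexposed (adjusted p = 1.68e-06). At 1:40000 against unexposed cells its log2 fold change was 0.63 (adjusted p = 0.0146). Without the deepest and shallowest 1:40000 libraries, which are replicates 1 and 2, it was 0.42 (adjusted p = 0.127), and with both rinse aid groups limited to replicates 3 to 5 it was 0.43 (adjusted p = 0.00369). Other genes on the same strand cover 10.5% of its exon length, among them small nucleolar RNA genes.

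EIF4G1, the main scaffold of eIF4F, had 909, 924, 948, 949 and 989 CPM in unexposed libraries, 640.4, 602, 709.6, 732.5 and 751 CPM at 1:40000, and 529, 512, 535, 562 and 542 CPM at 1:10000. The 3 groups did not overlap and fell from unexposed to 1:40000, where aligner and annotation also changed, and again to 1:10000. EIF4G1 was 1.28-fold lower at 1:10000 than at 1:40000 (log2 -0.36 ± 0.06, adjusted p = 1.27e-05), and 1.37-fold and 1.76-fold lower at 1:40000 and 1:10000 than unexposed (adjusted p = 5.05e-07 and 6.41e-12). It has no named pseudogene or changed version, and less than 5% of overlap or shared windows. Its relative EIF4G2, also called DAP5, which works without eIF4E, stood at 1545 ± 101, 1426 ± 119 and 1791 ± 64.1 CPM and was 1.25-fold higher at 1:10000 than at 1:40000 (adjusted p = 7e-05). EIF4G3 was lower between the dilutions (log2 -0.27, adjusted p = 0.00118).

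EIF4E, the cap-binding subunit, stood at 53.5 ± 3.1, 53.9 ± 5.8 and 54.3 ± 7.6 CPM and was called in no comparison. These values leave out its named pseudogenes, whose share was higher in rinse aid libraries than in unexposed ones. EIF4E2, a cap-binding relative that represses translation, had 78.7, 81.2, 71.7, 74.4 and 72.4 CPM in unexposed libraries, 36.2, 39.0, 48.6, 47.3 and 44.0 CPM at 1:40000, and 36.5, 43.7, 34.8, 39.7 and 37.5 CPM at 1:10000. Both rinse aid groups lay below the unexposed one and overlapped each other. It was 1.75-fold lower at 1:40000 and 1.98-fold lower at 1:10000 than unexposed (adjusted p = 1.18e-08 and 2.19e-10). EIF4E2 changed version between the annotations, and 24.2% of its exon length overlaps opposite-strand genes. Between the dilutions its log2 difference was -0.17 (adjusted p = 0.0918), and without 1:40000 replicate 1 it was -0.25 (adjusted p = 0.00977). EIF4ENIF1, the 4E-T protein that carries eIF4E to the nucleus and P-bodies, stood at 23.0 ± 2.1, 19.1 ± 2.8 and 13.6 ± 2.9 CPM and was 1.42-fold lower at 1:10000 than at 1:40000 (log2 -0.50, adjusted p = 0.00147).

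EIF4E3, an atypical cap-binding relative, was the least abundant tested gene in rinse aid libraries per kilobase of exon. It stood at 3.33 ± 0.55, 5.43 ± 1.46 and 7.47 ± 1.11 CPM and was higher at 1:10000 than unexposed (log2 1.18 ± 0.20, adjusted p = 1.02e-05) and at 1:40000 (log2 0.74 ± 0.19, adjusted p = 0.00238). Its difference between the dilutions (log2 0.44, adjusted p = 0.0365) lost the call without 1:10000 replicate 1 (adjusted p = 0.0518), 3 (0.0563) or 4 (0.111), and without 1:40000 replicate 3 (0.0688), 4 (0.0699) or 5 (0.186). EIF4B and EIF4H, which assist the helicase, were higher at 1:10000 than unexposed (log2 0.37 and 0.41). EIF4A3, the helicase of the exon junction complex, was lower at both dilutions (log2 -0.38 at 1:40000 and -0.42 at 1:10000).

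The promoter of EIF4E3 was also the 1 promoter of an EIF gene with the C/EBP-ATF element, the site that ATF4 and its partners bind. The letters TGATGNAA were searched on both strands in windows of 250 bases before to 50 bases after each gene start in RefSeq, GRCh38.p14. They occurred in 1270 of 35116 promoters (3.62%), and among the 63 promoters of the 47 EIF genes with an entry they occurred in those of 1 gene. The match lies at 1 of 3 RefSeq starts of EIF4E3, the most downstream, which is inside the gene as GENCODE 29 draws it, and begins 13 bases before that start. It is shown at chr3:71729119-71729147 on the minus strand, with the matching letters in capitals.
EIF4E3: catgttgccatggtgaTGATGAAAgttgg
A match describes letters only. The other 9 EIF genes were not analysed here for this element.

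The eIF4E-binding proteins, which hold eIF4E back from eIF4G until mTORC1 phosphorylates them, diverged. EIF4EBP1, an ATF4 target in other cells, had 45.7, 46.0, 51.7, 46.1 and 52.3 CPM in unexposed libraries, 109, 109, 99.3, 99.4 and 113 CPM at 1:40000, and 111, 125, 110.4, 104.5 and 104 CPM at 1:10000. Both rinse aid groups lay above the unexposed one and overlapped each other. EIF4EBP1 was 2.19-fold higher at 1:40000 and 2.30-fold higher at 1:10000 than unexposed (adjusted p = 5.79e-13 and 1.06e-13), and the dilutions differed by log2 0.07 ± 0.07 (adjusted p = 0.396).

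EIF4EBP2 (chromosome 10, bases 70404379 to 70428618 on the plus strand, GRCh38) had 1062, 1164, 1005, 1030.0 and 1012 CPM in unexposed libraries, 952, 1019, 1014, 1017 and 989 CPM at 1:40000, and 474, 476, 485, 510.3 and 519.9 CPM at 1:10000. Unexposed and 1:40000 libraries overlapped, and all 1:10000 libraries lay below both. EIF4EBP2 was 2.02-fold lower at 1:10000 than at 1:40000 (log2 -1.02 ± 0.05, adjusted p = 1.97e-13), while its log2 fold change at 1:40000 against unexposed cells was -0.08 ± 0.05 (adjusted p = 0.213). It was the 1 EIF gene called lower by at least 1.5-fold between the dilutions, where 14.2% of all genes tested were. Per kilobase of exon, the level of EIF4EBP1 relative to EIF4EBP2 within a library was 0.312 ± 0.036 unexposed, 0.719 ± 0.057 at 1:40000 and 1.53 ± 0.17 at 1:10000. The 3 ranges of this ratio, which does not depend on library scaling, did not overlap, and the pair was chosen after its values were seen.

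Of 17 tested regulators of mTORC1 and eIF4E, 5 (29.4%) were higher and 6 (35.3%) lower at 1:10000 against 1:40000, shares near the 28.3% and 29.1% of all genes tested. CASTOR1, also on this list, did not pass the count filter. Against unexposed cells, 6 were higher and 7 lower at 1:10000 (76.5% beside 71.0%), and 5 higher and 7 lower at 1:40000 (70.6% beside 52.1%). The inhibitor DDIT4 stood at 13.2 ± 3.3, 78.7 ± 8.4 and 99.0 ± 14.2 CPM, and SESN2, a leucine sensor that restrains mTORC1, at 15.7 ± 0.9, 45.0 ± 2.8 and 47.2 ± 2.5 CPM. Both rose at 1:40000 (log2 2.62 and 1.51, adjusted p = 2.59e-12 and 2.05e-14). SESN1, a relative of SESN2, stood at 48.5 ± 3.9, 36.4 ± 3.3 and 16.7 ± 2.0 CPM, and DEPTOR, a subunit that inhibits mTOR, at 25.3 ± 4.4, 17.3 ± 4.4 and 4.13 ± 1.00 CPM. Both fell between the dilutions (log2 -1.12 and -1.98, adjusted p = 3.11e-10 and 2.35e-09). AKT1S1, the mTORC1 inhibitor PRAS40, was lower at 1:40000 than unexposed (log2 -0.36). RHEB, the GTPase that activates mTORC1, and RPS6KB1, its S6 kinase target, were higher between the dilutions (log2 0.59 and 0.27).

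EIF5A and EIF5A2 also diverged at 1:10000 against unexposed cells, where aligner and annotation also changed. EIF5A fell from 348 ± 46.6 CPM unexposed to 279.5 ± 29.1 CPM at 1:40000 and 273 ± 12.4 CPM at 1:10000 (log2 -0.32 and -0.35, adjusted p = 0.00259 and 0.000645), with unexposed replicate 1 (270.0 CPM) among the rinse aid values. EIF5A2, its less abundant paralog, had 17.98, 12.8, 18.2, 17.8 and 18.4 CPM in unexposed libraries, 18.4, 16.8, 20.4, 21.4 and 20.4 CPM at 1:40000, and 48.6, 45.6, 45.6, 39.8 and 35.0 CPM at 1:10000. All 1:10000 libraries lay above all others, and the other groups overlapped. EIF5A2 was 2.18-fold higher at 1:10000 than at 1:40000 (log2 1.13 ± 0.10, adjusted p = 2.21e-09). At 1:40000 its log2 fold change against unexposed cells was 0.22 (adjusted p = 0.0978), and 0.30 (adjusted p = 0.0402) without the deepest and shallowest 1:40000 libraries. DOHH, an enzyme that makes the hypusine residue of eIF5A, was lower at both dilutions than unexposed (22.4 ± 3.9, 13.2 ± 4.0 and 13.2 ± 3.4 CPM, adjusted p = 0.00299 at 1:40000 and 0.00273 at 1:10000). DHPS, the other enzyme of this step, stood under 0.5 CPM on average in each group and did not pass the count filter. Its counts summed to 17 in unexposed libraries, 81 at 1:40000 and 11 at 1:10000. Such low counts do not show low expression, and the part of read assignment was not tested.

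**Figure D5:**
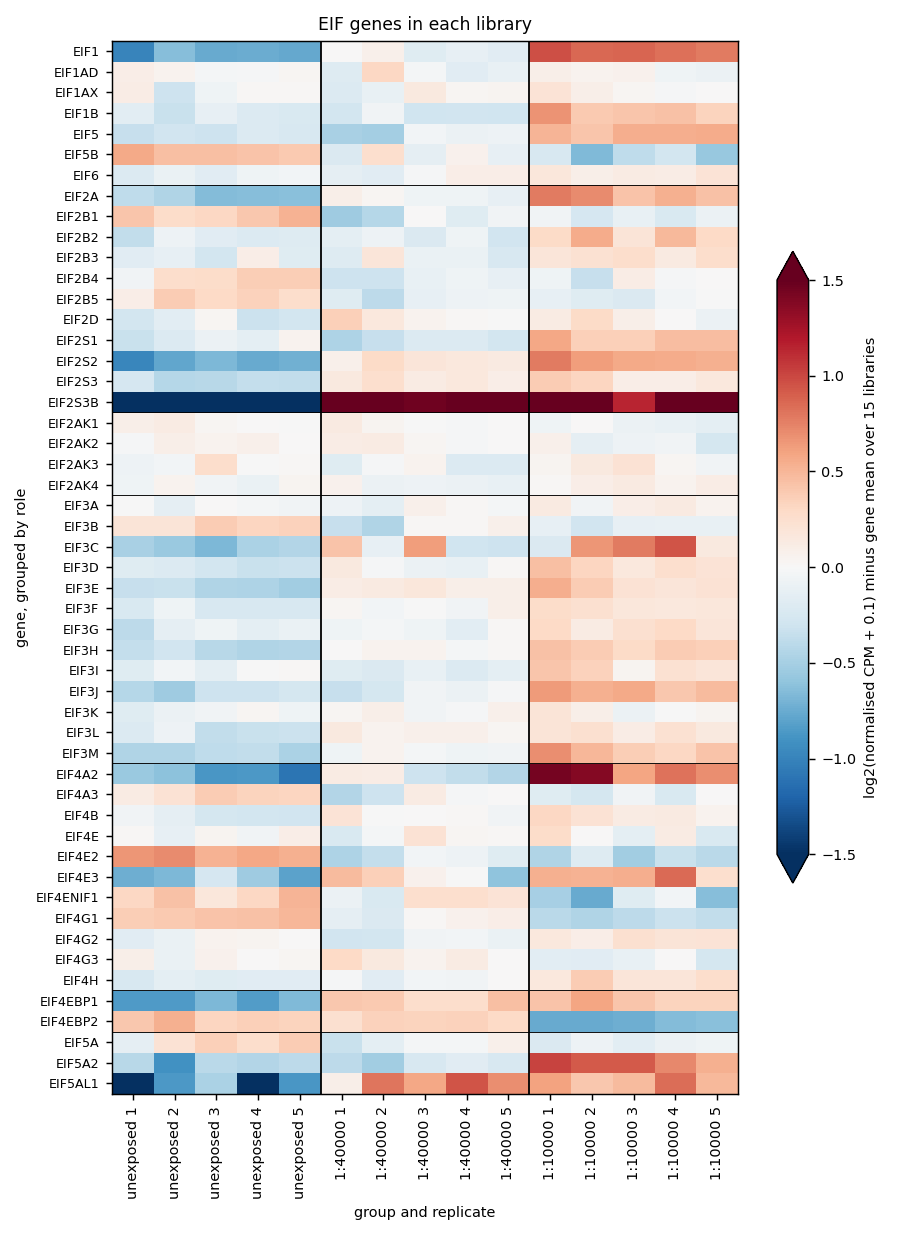
Each of the 51 tested EIF genes (rows, grouped by role) in each of the 15 libraries (columns), as log2(normalised CPM + 0.1) minus the gene's mean over all libraries; red is above and blue below that mean, and colours stop at 1.5 either way. The kinase rows are pale across all libraries, EIF1 and EIF2S2 step up through the groups, and EIF4EBP2 changes at 1:10000.

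Of 21 other initiation partners tested, DHPS not being among them, 10 (47.6%) were higher and 4 (19.0%) lower at 1:10000 against 1:40000. Over all genes tested, 28.3% were higher and 29.1% lower. Against unexposed cells, 9 were higher and 9 lower at 1:10000 (85.7% beside 71.0%), and 3 higher and 9 lower at 1:40000 (57.1% beside 52.1%). PAIP1, which links the poly(A)-binding protein to eIF4A, stood at 70.7 ± 3.0, 122 ± 5.6 and 189.9 ± 11.6 CPM (log2 0.64 between the dilutions, adjusted p = 1.49e-09). PAIP2, an inhibitor of the poly(A)-binding protein, stood at 77.4 ± 3.0, 80.8 ± 6.3 and 145 ± 17.8 CPM (log2 0.84, adjusted p = 1.22e-09), whereas its relative PAIP2B was lower (log2 -0.74, adjusted p = 4.29e-06). PABPC1, the poly(A)-binding protein, rose at 1:40000 against unexposed cells (log2 0.65). PDCD4, which blocks eIF4A, stood at 136 ± 21.8, 109 ± 13.9 and 88.2 ± 10.4 CPM and was called lower in each comparison (log2 -0.30 between the dilutions, adjusted p = 0.0211). CYFIP1, a binder of eIF4E, was 201.5 ± 9.2, 109 ± 6.0 and 94.1 ± 9.4 CPM, also called lower in each.

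Of 15 tested elongation and termination factors, 8 (53.3%) were higher and 2 (13.3%) lower between the dilutions, beside 28.3% and 29.1% of all genes tested. EEF1G, also on this list, did not pass the count filter. Its counts summed to 0, 3 and 0 in unexposed, 1:40000 and 1:10000 libraries, which does not show low expression. Against unexposed cells, 9 were higher and 1 lower at 1:10000 (66.7% beside 71.0%), and 6 higher and 3 lower at 1:40000 (60% beside 52.1%). EEF2, the translocase, stood at 2623 ± 240, 4189 ± 413 and 4472 ± 282 CPM, and rose at 1:40000 against unexposed cells (log2 0.68, adjusted p = 1.88e-08). EEF1A1, which delivers tRNA to the ribosome, rose at 1:10000 against unexposed cells (log2 0.90, adjusted p = 1.37e-10), and its relative EEF1A2 rose at 1:40000 (log2 1.62, adjusted p = 1.74e-07). PELO, which rescues stalled ribosomes, was higher between the dilutions (log2 0.75, adjusted p = 1.02e-08), as was the release factor ETF1 (log2 0.46, adjusted p = 3.28e-07). EEF2K, the kinase that inhibits EEF2, and EEFSEC, which delivers selenocysteine, were lower (log2 -0.37 and -0.27). DPH2, which acts in modifying EEF2, was lower at 1:40000 than unexposed (log2 -0.56). ABCF1, an eIF2-binding protein, stood at 93.2 ± 4.5 CPM unexposed and under 1 CPM on average at both dilutions, and EEF1D at 139 ± 4.3, 6.06 ± 11.1 and 1.46 ± 0.72 CPM. These 2 near-absences went with the aligner and annotation as well as with exposure.

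In the unexposed cells, levels of the 51 tested genes per kilobase of exon ran from 178.5 ± 11.7 CPM per kb for EIF4G2 to 0.237 ± 0.036 for EIF2S3B. EIF4EBP2 (145 ± 9.0), EIF5A (123.5 ± 16.6) and EIF4G1 (114 ± 3.7) followed EIF4G2. At 1:10000 the highest were EIF2S2 (263 ± 18.8), EIF1 (248 ± 12.6) and EIF4G2 (207 ± 7.4), with EIF1 within 1 SD of EIF2S2, and EIF4EBP2 was at 68.0 ± 2.9.

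The 5 genes that did not pass the count filter were EIF1AY, EIF3CL, EIF4A1, EIF4E1B and EIF4EBP3. EIF4A1, the other helicase of eIF4F, had 20 counts summed over the unexposed libraries, 74 at 1:40000 and 12 at 1:10000. Of its exon length, 48.6% lies under SENP3-EIF4A1 and AC016876.2 on the same strand. The 13 named pseudogenes of EIF4A1 held 61.1 to 100% of the gene and pseudogene counts together in unexposed libraries. These shares were 95.9 to 100% at 1:40000 and 94.6 to 100% at 1:10000. EIF4EBP3 had means under 0.5 CPM in each group, and 73.4% of its exon length lies under ANKHD1-EIF4EBP3. EIF3CL had means of 0.0444, 1.02 and 2.88 CPM in unexposed, 1:40000 and 1:10000 libraries, with 10.4 CPM in 1:10000 replicate 5 and at most 1.39 CPM in the other 4 of that group, and 97.2% of its windows recur elsewhere. Low counts of these 3 genes do not show low expression, and the part of the overlaps and copies was not tested. EIF4E1B, a germ cell relative of EIF4E, had means under 0.1 CPM in each group.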

How the data were processed

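Libraries of polyadenylated RNA were made with the TruSeq RNA Kit from RNA of an RNeasy Plus Micro Kit, per the labels. For each library the authors deposited a file of unnormalised read counts by Ensembl gene. Trimming with cutadapt, the aligner STAR 2.7.9a, the counter featureCounts, the package DESeq2 1.32.0 and the build GRCh38 are listed in the submitters' processing notes without roles, while per the file headers the rinse aid files came from HISAT2. The annotation releases and strand setting are not given in the sources used here.

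Files were joined on version-free Ensembl identifiers (60557 shared, 3798 with a changed version, at least 99.98% of each library's counts). Counts were fitted in R 4.3.3 with edgeR 4.0.16 (TMM, filterByExpr by group, robust quasi-likelihood, 3 group means over all 15 libraries), tested on simulated data first. Adjustment was Benjamini-Hochberg over 13158 genes in each comparison. SE is the absolute log2 fold change over the square root of the F statistic. GENCODE 29 gave coordinates, exon lengths (all annotated exons of a gene joined) and overlaps. DESeq2 1.42.0 was 1 of the alternatives, with other scalings and filters, left-out libraries, summed copies and a replicate block. No 2 files held identical counts.

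The EIF genes and the 4 partner lists were chosen with earlier results of these data known. Named in full were the kinases and 4E-binding proteins, the 6 highest and 6 lowest called EIF genes per comparison, those untested, and per list the 2 called genes with the smallest adjusted p in each direction, with ATF4, DDIT3, PPP1R15A, PPP1R15B, DHPS, DOHH and PDCD4 always. Protein sequences were not analysed here.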

Additional observations from a re-analysis of the deposited data

Results flagged for a closer look

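In 8 of 153 groups of 5 libraries, 1 library lay far from the other 4 by Dixon's test for a single outlier, and chance gives about 1 in 20. Unexposed libraries gave 4 of these. EIF2AK3 had 73.9 CPM in replicate 3, with the others at 58.1 to 62.2 CPM. EIF3F had 233 CPM in replicate 2, with the others at 206 to 208 CPM. EIF3G had 82.9 CPM in replicate 1, with the others at 99.1 to 104.5 CPM. EIF5A2 had 12.8 CPM in replicate 2, with the others at 17.8 to 18.4 CPM.

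The 1:40000 libraries gave 3, all in the deepest (replicate 1) or shallowest (replicate 2) library of the group. EIF1B had 61.9 CPM in replicate 2, with the others at 52.0 to 52.8 CPM. EIF2AK4 had 74.6 CPM in replicate 1, with the others at 66.1 to 67.5 CPM. EIF4B had 758 CPM in replicate 1, with the others at 634 to 667 CPM. At 1:10000, EIF3B had 235 CPM in replicate 2, with the others at 262 to 266 CPM.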

How the results depend on the processing

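Of the counts of EIF genes and partner genes called, 142 of 144 stayed within 1.5 times under the alternatives other than single left-out libraries, and all 180 did when 1 library was left out. The 2 exceptions are the 8 EIF genes called lower between the dilutions, in place of 5, under upper-quartile scaling and with no filter on low counts. Upper-quartile scaling gave 4032 higher and 2899 lower calls over all genes at 1:40000 against unexposed cells, and 3323 higher and 4288 lower between the dilutions. With no filter, the median over all genes moved to 0.16 and -0.21 in these 2 comparisons. Leaving out single libraries gave 21 to 24 higher and 5 to 7 lower EIF genes between the dilutions, 30 to 32 and 11 to 14 at 1:10000 against unexposed cells, and 18 to 21 and 9 to 11 at 1:40000.

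Changes of sign touched only differences that were not called. At 1:40000 against unexposed cells, upper-quartile scaling gave 0.005 for EIF1B, 0.034 for EIF2AK1 and 0.022 for EIF2AK4, no filter gave 0.031, 0.059 and 0.048 for the same genes, and a 10 CPM minimum gave 0.004 for EIF2AK1. EIF2AK2 there gave -0.002 under the replicate block, -0.038 without the deepest and shallowest 1:40000 libraries, -0.035 with replicates 3 to 5, and -0.000 with TMM from genes of unchanged version. With 1 library left out, EIF2AK2 ranged from -0.020 to 0.019 and EIF2AK1 from -0.046 to 0.001. Between the dilutions, EIF2B5 gave -0.014 under upper-quartile scaling, -0.035 with no filter and -0.011 without the deepest and shallowest libraries, where EIF2B1 gave -0.056 and EIF2S3B 0.085. EIF2B1 gave -0.060 with replicates 3 to 5 and EIF4EBP1 -0.000 with no filter. Single left-out libraries gave -0.020 to 0.151 for EIF2B1, -0.098 to 0.073 for EIF2S3B and -0.17 to 0.071 for EIF5AL1. The cause of these changes was not tested.

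The labels do not say that a replicate number marks a shared culture or day. Deviations of same-numbered libraries correlated at 0.046 to 0.28 between the dilutions, 4 of 5 pairs above 0.1, and at -0.05 to 0.13 in the other comparisons, and 7 of 15 pairs correlated best with their own number. Not every pair exceeded 0.1, so the numbers were not taken as pairs, although some sharing between the dilutions was measured. With the replicate number as a block, 24 EIF genes were higher and 7 lower between the dilutions, 31 and 14 at 1:10000, and 19 and 12 at 1:40000, where the EIF3C call was lost (adjusted p = 0.0526). Under the block, EIF4A2 at 1:10000 against unexposed cells had an adjusted p of 1.5e-18, and EIF2AK2 there was called lower (adjusted p = 0.0381). Summing genes with their named pseudogenes gave 24 and 5, 33 and 13, and 22 and 9 in the same order.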
